A study of Mus musculus with 16 samples.

Results

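Exendin-4 acts on beta cells through the GLP-1 receptor, and the question here was which transcripts differed between its presence and its absence after 2 h. Of the 16 arrays in the series, the 4 whose titles carry the 2 h time were taken, 1 array per treatment. They came from R7T1 cells given exendin-4, BayK8644 with exendin-4 (the combination), DMSO, or BayK8644. R7T1 is a mouse beta-cell line known as background to be reversibly immortalized, and the labels do not say whether the cells were cycling or growth-arrested. Every array was of this 1 line, and the other 12 arrays hold the same 4 treatments at 0.5, 6 and 24 h. DMSO is the vehicle, and BayK8644 is an agonist of L-type calcium channels. The labels write it BayK8644(2a) without explaining the 2a, and the doses are not given in the sources used here. Exendin-4 minus DMSO and combination minus BayK8644 are 2 separate estimates of the exendin-4 difference that share no array, and a gene counted where both had the same sign.

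The GLP-1 receptor couples to the stimulatory G protein Gs, which switches on adenylyl cyclase and raises cAMP. cAMP frees the catalytic subunits of protein kinase A, which phosphorylates the transcription factor CREB, and CREB with its coactivators CRTC and CBP drives genes that carry cAMP response elements. In beta cells this pathway is known for amplifying glucose-stimulated insulin secretion and for promoting survival. Phosphodiesterases degrade cAMP, and several of them, like the repressor product of Crem, are themselves known cAMP-induced brakes.

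Levels are log2 of the GCRMA intensity, a background-corrected brightness of a probe set with no absolute unit, and differences are log2 differences with exendin-4 present minus absent. Values below log2 4 lie near the floor of the method. At 2 h, Ins2, an insulin gene, lay at 15.76 with exendin-4, 15.79 with the combination, 15.66 with DMSO and 15.63 with BayK8644. Pdx1, a transcription factor of beta-cell identity, lay between 13.22 and 13.43 on the same arrays. Glp1r, the gene of the receptor itself, lay between 2.04 and 2.08 on all 16 arrays, at the floor, so its level was not measured. Markers of other islet cells summed to 84523 and 85503 intensity units with exendin-4 (alone, combination), against 81238 with DMSO and 85138 with BayK8644. Of the 9 such markers annotated, 4 reached the filter level, and Ttr made up nearly all of the sum. The sum thus reads that gene and gives no amount of other islet cells. Gcg, the glucagon gene of alpha cells, lay at 9.60 and 9.95, against 9.57 and 9.59, and Sst, the somatostatin gene of delta cells, at 5.12 and 5.45, against 5.09 and 5.12. Irx2, another of the 4, went the other way near the floor, at 4.45 and 4.49, against 4.73 and 4.62. Acinar and duct markers summed to 1279 and 1223, against 1144 and 1001, with 2 or 3 of 10 at the filter level. Mesenchymal, endothelial and leukocyte markers summed to 1280 and 1657, against 1219 and 1480, which was almost all Vim, with Ptprc, the CD45 gene of leukocytes, at the floor. The RNA-quality reading of the arrays moved with exendin-4 at 2 h. The log2 ratio of the 3' to the 5' control probe set of Actb was 0.80 and 0.70 with exendin-4 (alone, combination), against 0.67 and 0.64 without, in a range of 0.59 to 0.80 over the 16 arrays. For Gapdh it was -0.25 and -0.21, against -0.25 and -0.26. The part of either reading in the results below was not tested.

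After 2 h, 2 of 10610 genes tested rose with exendin-4, 0.0189% of all, and none fell (limma, Benjamini-Hochberg adjusted p under 0.05). They were Nr4a1, the orphan nuclear receptor Nur77 and an immediate-early target of CREB, and Ppargc1a, which encodes the transcriptional coactivator PGC-1alpha and is a CREB target known from liver. Ppargc1a was admitted to the test only through arrays with exendin-4, 1 of 18 such genes, so a difference was built into its admission, and without it the count is 1. In all, 589 genes, these 2 included, had an unadjusted p under 0.05, where 530.5 would be reached by chance with no effect anywhere. Of those 589, 587 had the same sign in both pairs, 327 higher and 260 lower, which follows from choosing by p, since pairs that agree give a smaller p. Because each treatment and time had 1 array, the spread in the test came from how far the 2 pair differences departed from each other at each of the 4 times (4 residual degrees of freedom). A real difference between the pairs would count as spread there. From that, limma drew the spread of each gene toward that of genes at like levels. The root mean square residual was 0.051 at 0.5 h, 0.074 at 2 h, 0.070 at 6 h and 0.092 at 24 h.

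Promoters of the NR4A family and of Ppargc1a are shown because Nr4a1 and Ppargc1a passed the test, Nr4a3 and Nr4a2 are the relatives of Nr4a1, and the pathway ends at cAMP response elements in such promoters. Each is the RefSeq window on GRCm38.p6 from 250 bases before to 50 bases after the start, printed 5′ to 3′ along the gene. Capitals mark every match to the core motif TGACG or its reverse complement CGTCA. The last one, Sst, is the textbook somatostatin promoter and holds the full palindrome TGACGTCA, in which both core motifs overlap.
Nr4a1 (chr15:101266596-101266895, plus strand): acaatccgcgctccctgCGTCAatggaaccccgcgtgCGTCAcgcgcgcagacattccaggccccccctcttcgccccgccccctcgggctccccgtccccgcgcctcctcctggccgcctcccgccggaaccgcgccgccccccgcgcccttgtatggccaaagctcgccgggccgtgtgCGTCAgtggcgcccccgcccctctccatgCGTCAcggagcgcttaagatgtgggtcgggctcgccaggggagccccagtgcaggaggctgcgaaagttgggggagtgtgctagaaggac
Nr4a3 (chr4:48045055-48045354, plus strand): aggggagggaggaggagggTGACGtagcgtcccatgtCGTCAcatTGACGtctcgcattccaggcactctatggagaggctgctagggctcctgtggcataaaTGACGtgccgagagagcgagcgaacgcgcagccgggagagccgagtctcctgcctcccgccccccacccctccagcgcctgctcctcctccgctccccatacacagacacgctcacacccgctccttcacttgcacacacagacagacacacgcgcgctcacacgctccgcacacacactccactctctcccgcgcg
Nr4a2 (chr2:57123954-57124253, minus strand): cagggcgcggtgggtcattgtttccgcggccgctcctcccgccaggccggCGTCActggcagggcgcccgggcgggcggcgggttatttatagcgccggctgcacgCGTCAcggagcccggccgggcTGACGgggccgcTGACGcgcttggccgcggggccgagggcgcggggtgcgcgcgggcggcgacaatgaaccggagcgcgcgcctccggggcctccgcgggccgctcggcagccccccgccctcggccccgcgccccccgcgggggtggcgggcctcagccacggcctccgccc
Ppargc1a (chr5:51567676-51567975, minus strand): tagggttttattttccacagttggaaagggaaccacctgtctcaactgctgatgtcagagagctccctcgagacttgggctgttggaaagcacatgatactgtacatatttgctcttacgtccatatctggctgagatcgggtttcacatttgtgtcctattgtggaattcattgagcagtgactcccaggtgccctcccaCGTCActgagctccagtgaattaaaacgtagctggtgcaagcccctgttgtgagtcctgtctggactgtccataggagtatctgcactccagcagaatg
Sst (chr16:23890795-23891094, minus strand): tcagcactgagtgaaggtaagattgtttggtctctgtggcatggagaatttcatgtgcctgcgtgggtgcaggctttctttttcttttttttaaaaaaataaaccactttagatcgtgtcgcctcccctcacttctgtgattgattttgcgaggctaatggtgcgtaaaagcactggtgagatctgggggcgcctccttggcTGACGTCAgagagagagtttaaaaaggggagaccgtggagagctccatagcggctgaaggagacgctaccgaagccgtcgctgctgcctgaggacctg
The core motif occurred 4 times in the Nr4a1 window, starting 233, 213, 69 and 40 bases before the start. Nr4a3 and Nr4a2 held 4 each, and Ppargc1a held 1, 49 bases before the start. Over 32851 mouse promoter windows of the same length, 20.8% held a core motif on either strand, 0.231% held 4 or more, and 1.79% held the full palindrome. At 2 h the exendin-4 difference was 0.95 for Nr4a1, 1.46 for Nr4a3, -0.14 for Nr4a2, 1.97 for Ppargc1a and 0.18 for Sst, and any relation of matches to differences was not tested. A match is a match of letters and not a measured binding site.

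Nr4a1 lay at 9.84 with exendin-4, against 8.88 with DMSO. With the combination it lay at 12.17, against 11.23 with BayK8644. BayK8644 alone set the higher level, so the arrays with and without exendin-4 overlap, while the step between each pair was nearly equal, at 0.96 and 0.94. The fitted rise was 0.95 ± 0.08 (SE, 1.93-fold), with an adjusted p of 0.0102 (limma). Of its alternatives the adjusted p ranged from 0.00387 to 0.205, and it missed the threshold without any 1 of the 2 h arrays (0.195 to 0.205) or of the 6 h arrays (0.0665 to 0.0745). The BayK8644 difference of the same gene at 2 h was 2.34 on the log2 scale.

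Ppargc1a lay at 5.76 with exendin-4, against 3.42 with DMSO. It lay at 5.54 with the combination, against 3.94 with BayK8644. Here the arrays with and without exendin-4 did not overlap, and both arrays without it were under the floor. The fitted difference was 1.97 ± 0.22 (SE), with an adjusted p of 0.0475 (limma), and was 1.19 with 16 added to every intensity. Since its lower side was not above the floor, no exact fold is given. With values under log2 4 set to 4, the probe set used was 3.14-fold higher with exendin-4, which is no bound for the gene. Without any 1 array of 0.5, 2 or 6 h the adjusted p lay between 0.0852 and 0.348. The probe set used for Ppargc1a passed the filter on low values only through arrays with exendin-4, since no array without it reached log2 4 at any time. Of the 5 probe sets of the gene, 3 were above the filter and on the same side. The one numbered 1456395_at read 5.05 and 5.44 with exendin-4, against 2.58 and 2.64 without, and 1434099_at read 5.39 and 5.81, against 3.93 and 4.49. Their differences were 2.63 and 1.39, so the size differed between probe sets. The 2 under the filter differed by 0.63 and 0.00.

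The next genes did not pass, and are given by their values. Lrrc10b, a leucine-rich repeat gene, came closest, at 9.84 and 9.50 with exendin-4 (alone, combination), against 8.58 with DMSO and 8.52 with BayK8644. Its difference was 1.12 ± 0.14 (adjusted p = 0.0738, limma), and no array without exendin-4 reached either array with it. Tac1, the precursor gene of substance P, had the largest fitted difference of the 12 named genes above 0, 2.20 ± 0.30 (adjusted p = 0.110). It lay at 7.26 with exendin-4, against 5.59 with DMSO, and at 10.14 with the combination, against 7.40 with BayK8644. Btbd11, a BTB-domain gene, lay at 9.97 and 9.60, against 8.94 and 8.81, and Dip2b at 11.47 and 11.33, against 11.06 and 10.91. In both of these genes the arrays with exendin-4 lay above the arrays without it. Like Lrrc10b, they were picked by small p, so such separation is partly built in. Its share over all genes was not counted. Entpd3, an ectonucleotidase gene, lay at 6.98 and 6.85, against 6.15 and 5.99, and Rbm20, a splicing factor gene, at 9.72 and 9.63, against 8.86 and 9.10.

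Among transcription factors of the cAMP response, Crem, whose ICER product represses CREB targets, lay at 8.44 with exendin-4, against 6.78 with DMSO, and at 8.06 with the combination, against 7.02 with BayK8644. Its difference was 1.35 ± 0.20 (adjusted p = 0.129). Fosl2, which encodes the AP-1 subunit Fra-2, lay at 6.38, against 4.39, and at 7.29, against 5.99, a difference of 1.64 ± 0.26 (adjusted p = 0.158). Its DMSO array lay near the floor, and over the alternatives the difference lay between 1.27 and 1.98. Nr4a3, the NR4A member also called NOR-1, lay at 5.75 and 6.42 with exendin-4, against 4.63 with DMSO and 4.63 with BayK8644. Its difference of 1.46 ± 0.45 had an adjusted p of 0.777, since its error was the widest of these transcription factor genes. Its arrays without exendin-4 lay near the floor, and over the alternatives the difference lay between 1.05 and 1.79. Nr4a2, the remaining member, lay at 8.93 and 8.89, against 9.16 and 8.93. Fos, the classical immediate-early AP-1 gene, lay at 9.80 and 10.49, against 9.68 and 10.41, so that its 2 h difference was 0.10 ± 0.10. Sik1, a kinase that restrains CRTC coactivators and is a known CREB target, lay between 2.60 and 3.23 on all 16 arrays, under the filter.

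**Figure D1:**
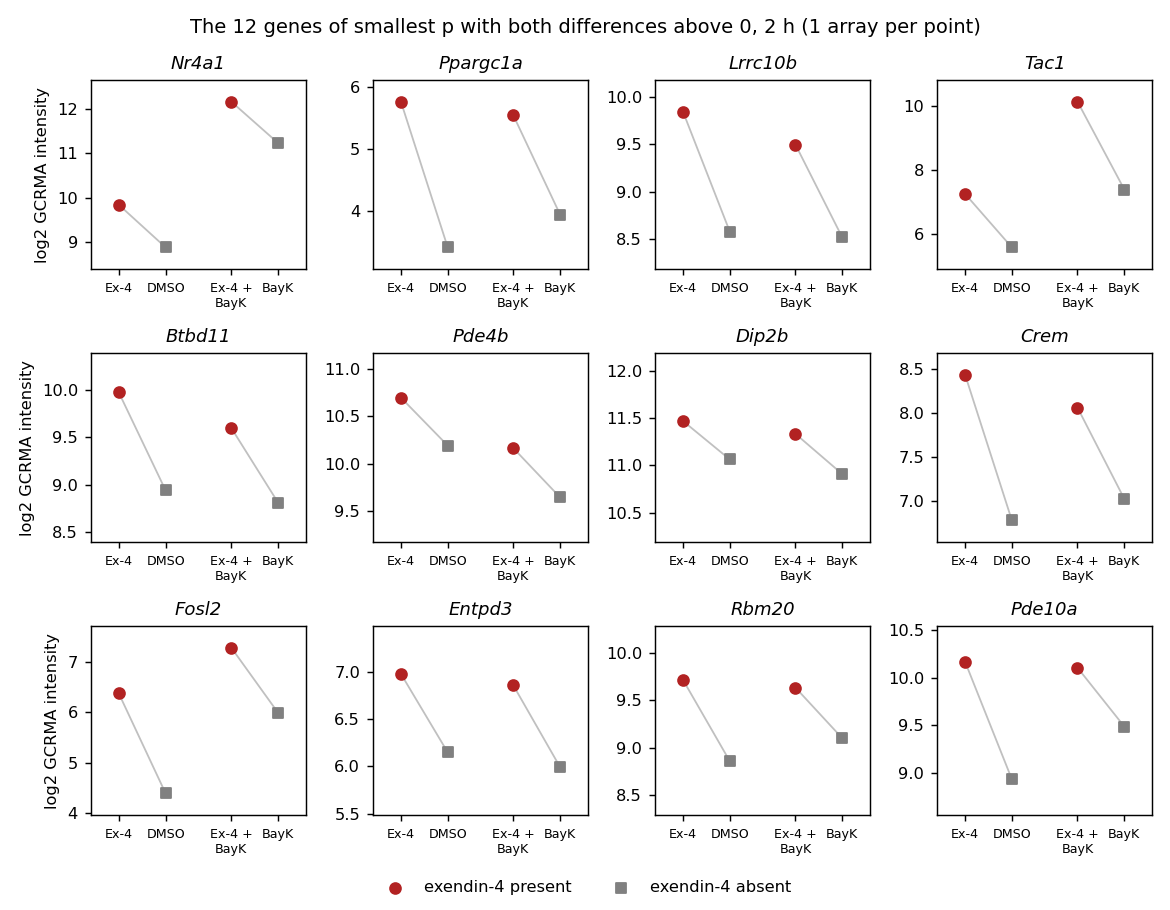
Log2 GCRMA intensity at 2 h of the 12 genes of smallest p with both pair differences above 0, 1 array per point, with a line joining each array with exendin-4 (red circles) to its partner without it (grey squares). Ex-4 is exendin-4, BayK is BayK8644, and each panel has its own vertical axis. Nr4a1 lies 0.96 and 0.94 above its partners, with both points of the BayK8644 pair higher.

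Genes of the phosphodiesterase list were mostly on the positive side. Pde4b, a cAMP-specific phosphodiesterase, lay at 10.70 with exendin-4, against 10.19 with DMSO, and at 10.16 with the combination, against 9.64 with BayK8644. Its difference was small and even between the pairs, 0.51 ± 0.07 (adjusted p = 0.110), while the BayK8644 difference at 2 h was -0.54 and passed the test (adjusted p 0.00751, limma). Pde10a, which degrades cAMP and cGMP, lay at 10.17 and 10.11, against 8.93 and 9.48, a difference of 0.93 ± 0.17 (adjusted p = 0.225). Pde4d, another cAMP-specific form, lay at 8.59 and 8.28, against 8.00 and 8.01. Of the 11 phosphodiesterase genes tested, of 19 listed, none passed, 7 were higher in both pairs, 1 was lower in both, and the median difference was 0.12. Over all genes 33.1% were higher in both pairs and 19.8% were lower in both, and the median difference was 0.02.

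Of the 28 CREB and cAMP targets tested, of 33 listed, 2 passed, both higher, and none fell. They were Nr4a1, and Ppargc1a, which was admitted only through arrays with exendin-4. Over all genes 0.0189% passed, and these 2 were the only ones. Another 17 were higher in both pairs without passing, 2 were lower in both and 7 were opposed, so 67.9% were higher in both, beside 33.1% of all genes. These targets were listed with earlier results of the same arrays known, so neither the 2 calls nor the share is independent evidence of a direction. Nor was the share particular to them, at 73.7% for glycolysis and hypoxia genes and 66.7% for the unfolded protein response. Their median difference was 0.16, and the members ranged from -0.17 (Nfil3, a bZIP repressor) to 2.20 (Tac1). The upper end held Tac1, Ppargc1a, Fosl2, Nr4a3 and Crem. Vgf, a neuropeptide precursor gene, lay at 0.45 ± 0.08. Other known CREB targets had smaller differences, among them Rgs2 at 0.21, Dusp1 at 0.11, Per1 at 0.06, Egr1 at 0.03 and Irs2 at 0.00. The middle 50% of all genes lay between -0.05 and 0.09. Of the 21 tested targets with a RefSeq window, 17 held a core motif and 4 the palindrome. The list was drawn up as CREB targets, so such motifs are partly built into it. Among the 12 named genes above 0, 5 of 10 with a window held a core motif, and among the 12 below 0, 3 of 8 did. Of all single windows, 20.8% held a core motif and 1.79% the palindrome. That is not a like measure, since a gene here counted if any of its windows matched.

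Upstream components of the pathway had a median near that of all genes. None of the 29 tested genes for receptors, G proteins, cyclases, kinase subunits and coactivators passed, of 39 listed. Among them 5 were higher in both pairs (17.2%), 9 lower in both (31.0%) and 15 opposed, with a median of -0.03. Over all genes 33.1% were higher in both and 19.8% lower in both. Sik2, a salt-inducible kinase that phosphorylates CRTC coactivators, had the highest difference, 0.41 ± 0.10, and Pkib, an inhibitor of protein kinase A, the lowest, -0.31 ± 0.10. Prkar2b, a regulatory subunit of protein kinase A, lay at -0.24 and the catalytic subunit gene Prkacb at -0.20. Creb1 itself had -0.07 ± 0.10.

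Most immediate-early genes lay close to 0 at 2 h, apart from Nr4a1 and Nr4a3. Of 34 tested, 1 rose (Nr4a1), 19 were higher in both pairs with Nr4a1 included, 6 were lower in both, and the median was 0.08. Over all genes 0.0189% were called, 33.1% were higher in both pairs and 19.8% lower in both. Id1, an inhibitor of basic helix-loop-helix factors, had 0.33 ± 0.09, and Npas4, a calcium-responsive factor, had -0.21 ± 0.28. Feedback genes of MAP kinase signalling had none passed of 19 tested and a median of 0.04. Their ends were Etv5 at 0.42 and Etv4 at -0.68, both ETS factors, and Etv4 lay close to the floor at 2 h. Dusp4, a nuclear MAP kinase phosphatase, had 0.37 and Spry1, a receptor tyrosine kinase antagonist, -0.50.

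**Figure D2:**
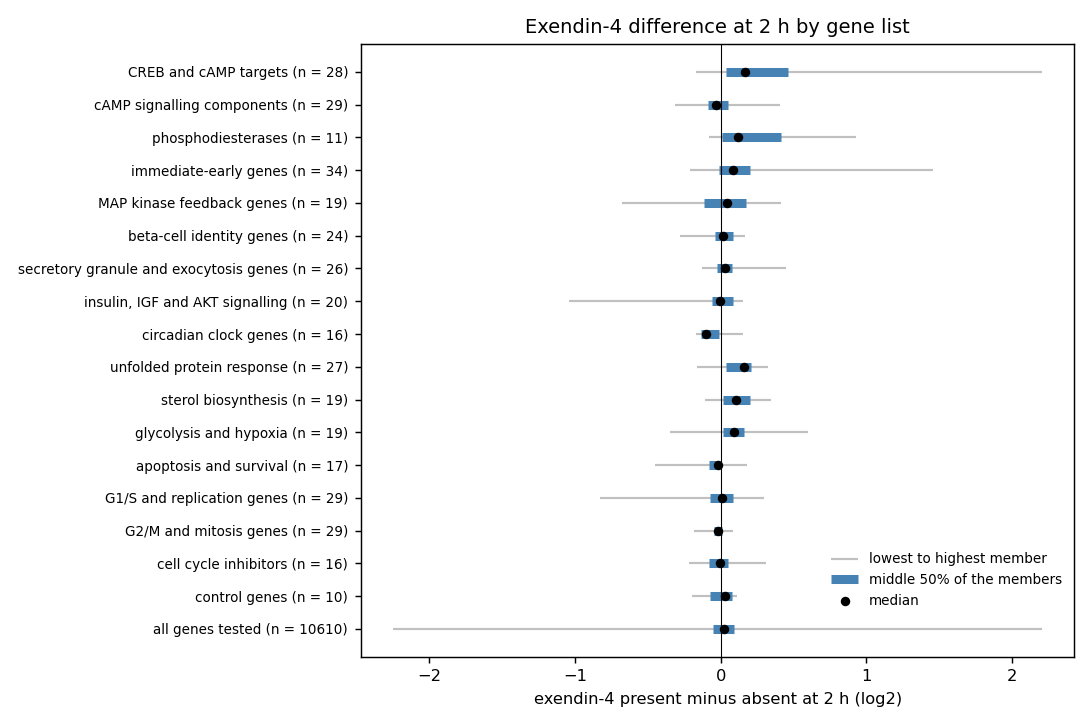
Fitted difference at 2 h with exendin-4 present minus absent, on the log2 scale, for each gene list and for all genes tested (bottom row). Points are medians, thick bars the middle 50% of the members and thin lines the lowest to highest member. CREB and cAMP targets have a median of 0.16, and all genes 0.02.

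On the negative side no gene passed. Smc4, a condensin subunit, had the smallest p of the genes with both differences below 0. It lay at 13.66 with exendin-4, against 14.11 with DMSO, and at 13.46 with the combination, against 14.13 with BayK8644, a difference of -0.56 ± 0.09 (adjusted p = 0.134). The probe sets of Smc4 did not agree, with a difference of -0.45 in a dimmer one and of -0.01 in one nearly as bright, which read 13.77 and 13.72, against 13.74 and 13.77. Gsk3b, the kinase that phosphorylates glycogen synthase and beta-catenin, lay at 10.88, against 11.95, and at 10.93, against 11.94. Its 2 pairs were nearly equal, and the difference was -1.04 ± 0.19 (adjusted p = 0.225), but the size was not repeated by its other probe sets. The next brightest one of Gsk3b read 11.33 and 11.32 with exendin-4, against 11.38 with DMSO and 11.32 with BayK8644, a difference of -0.03. The remaining 4 lay at -0.03, -0.21, -0.51 and 0.09, so the difference of Gsk3b rests on 1 probe set. Sec14l3, a lipid-binding protein gene, lay at 5.09 and 5.26, against 5.78 and 6.03. The other probe sets of Sec14l3 had -0.13 and -0.20, each with opposed pairs. Vegfa, the angiogenic growth factor, lay at 10.37 and 10.57, against 10.65 and 10.97. The other probe set of Vegfa had -0.10, also with opposed pairs, at 9.56, against 9.39, and at 9.45, against 9.83. The other 8 were Bpnt2, Lin9, Tmem30a, Gpd2, Nr2f1, Cdh7, Slc35a5 and Nipbl, with differences between -0.47 (Nipbl, the cohesin loader) and -0.28 (Slc35a5). Of these, Bpnt2, Slc35a5 and Nipbl each had 1 probe set above the filter on the other side of 0. Gpd2, the mitochondrial glycerol-3-phosphate dehydrogenase, had -0.34. In bulk RNA, fewer cells with a transcript and less of it per cell cannot be told apart.

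**Figure D3:**
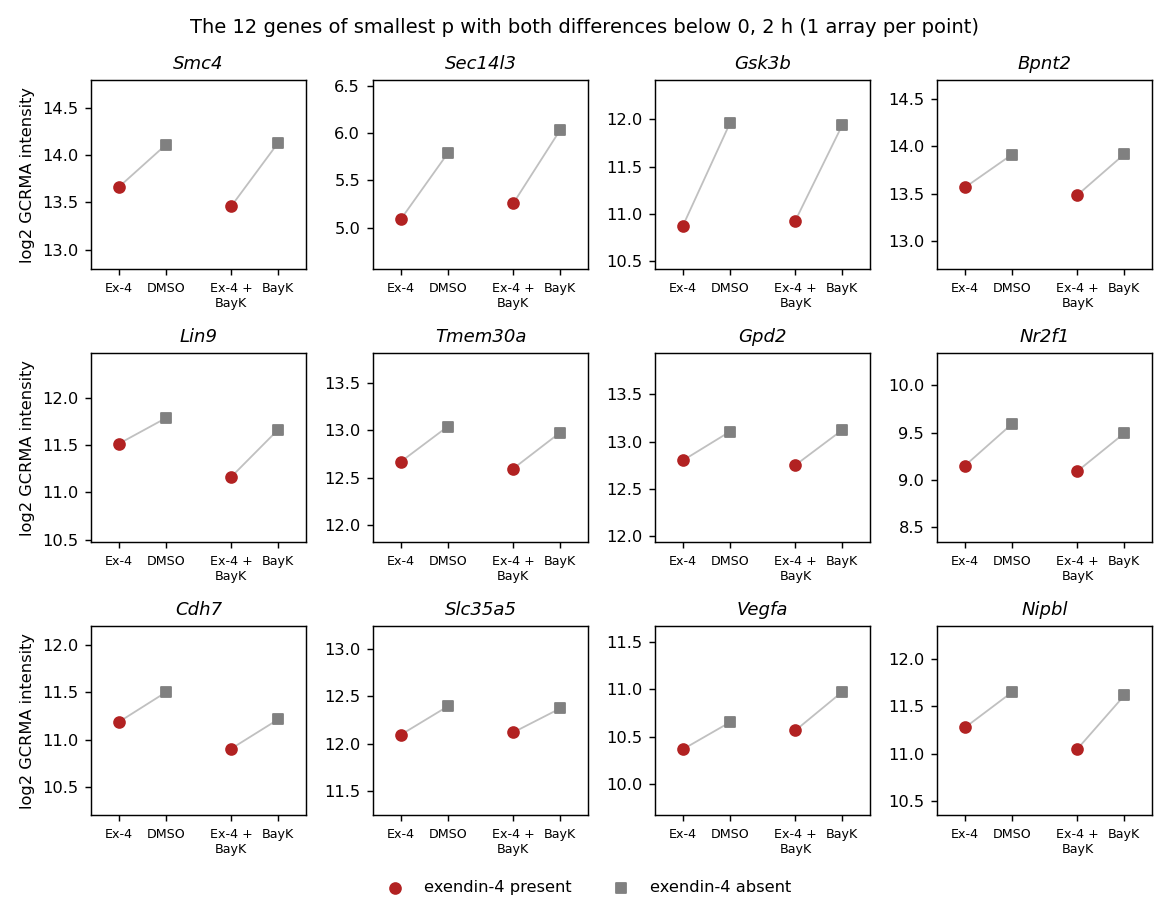
Log2 GCRMA intensity at 2 h of the 12 genes of smallest p with both pair differences below 0, drawn as for the genes above 0, with exendin-4 arrays as red circles to the left of their partners. Gsk3b lies at 10.88 and 10.93 with exendin-4, against 11.95 and 11.94.

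Cell cycle genes had no call. Of 29 G1/S and replication genes tested, 11 were higher in both pairs and 8 lower in both, with a median of 0.01. Ccnd2, which encodes cyclin D2, lay at 12.84 with exendin-4, against 12.54 with DMSO, and at 13.34 with the combination, against 13.05 with BayK8644. The difference was 0.29 ± 0.06 (adjusted p = 0.247), beside a BayK8644 difference of 0.51 at the same time. Its 7 probe sets disagreed on exendin-4: 5 lay between 0.03 and 0.32, and 2 lay at -0.72 and -0.68, so no direction is given for Ccnd2. Ccnd1, the cyclin D1 gene, lay at 4.31 and 4.45, against 5.20 and 5.22, close to the floor. G2/M genes had a median of -0.02 over 29 tested and cell cycle inhibitors 0.00 over 16.

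Beta-cell genes were close to the median of all genes. Of 24 identity genes tested none passed, 10 were higher in both pairs and 4 lower in both, and the members ranged from -0.28 (Mnx1, a homeobox factor) to 0.16 (Foxa1, a forkhead factor). Ins2 had 0.13 ± 0.06 and Pdx1 -0.10 ± 0.05. Of 26 secretory granule and exocytosis genes, none passed and the median was 0.03, with Vgf highest. Insulin, IGF and AKT signalling genes had a median of 0.00 over 20 tested, with Gsk3b as the lowest member. Apoptosis and survival genes, 17 tested, had a median of -0.02, and circadian clock genes, 16 tested, -0.10. In these lists 11.76% and 18.75% were higher in both pairs, beside 33.1% of all genes. Lower in both were 41.18% and 31.25%, beside 19.8% of all genes.

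Medians above that of all genes, with no call, stood in 3 metabolic and stress lists. Of 27 genes of the unfolded protein response, 18 were higher in both pairs (66.7%) and 1 lower in both, with a median of 0.16. Over all genes 33.1% were higher in both pairs and 19.8% lower in both. Sdf2l1 and Dnajb9, both endoplasmic reticulum chaperone genes, had 0.32 and 0.31. Of 19 genes of glycolysis and hypoxia, 14 were higher in both pairs (73.7%), with a median of 0.09. Slc16a3, a lactate transporter gene, had 0.60 and Ldha, lactate dehydrogenase A, 0.36, while Vegfa was lowest. Sterol biosynthesis genes, 19 tested, had 10 higher in both pairs (52.6%) and a median of 0.10. The 10 control genes tested had a median of 0.03, ranging from -0.20 (B2m) to 0.11 (Pgk1).

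Over all 10610 genes the 2 pairs agreed in sign for 5612 genes, 52.9%, with 3509 higher and 2103 lower in both. The medians were 0.01 for exendin-4 minus DMSO and 0.04 for combination minus BayK8644, and the SDs across genes were 0.19 and 0.23. Across genes, which are not independent replicates, the pair differences had a Pearson r of 0.03 and a Spearman rho of 0.05. Among genes past 0.5 on the log2 scale in both pairs, 26 were higher in both, 18 lower in both and 42 opposed. Past 1 in both pairs, 7 were higher (0.066%), 2 lower (0.0189%) and 7 opposed. The 7 were Tac1, Ppargc1a, Fosl2, Nr4a3, Crem, Hs3st1 and Fgfr2, and the 2 were Gsk3b and Zbtb12, of which Hs3st1, Fgfr2 and Zbtb12 are named after their values were seen. At that size as many genes were opposed between the pairs as were higher in both.

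**Figure D4:**
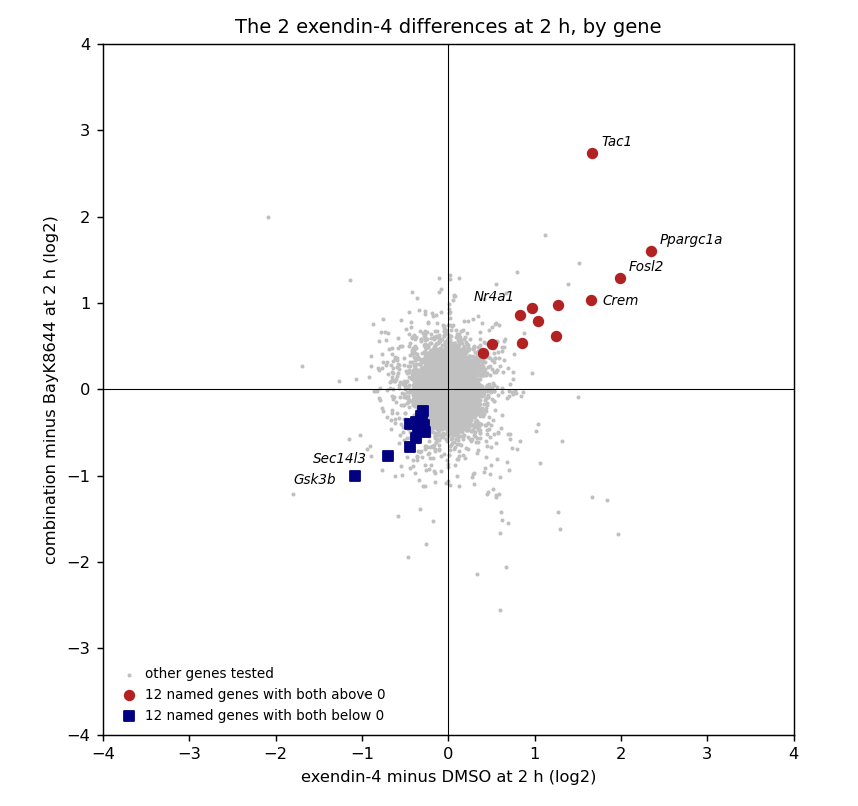
Exendin-4 minus DMSO (horizontal) against combination minus BayK8644 (vertical) at 2 h for each gene tested, both on the log2 scale, with the 12 named genes above 0 in red and the 12 below 0 in blue. Tac1 lies at 1.67 and 2.74, Ppargc1a at 2.34 and 1.60, and the bulk of genes forms a cloud around 0.

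Whether BayK8644 altered the exendin-4 difference was tested with an interaction term at 2 h. None of the 10610 genes passed, the smallest adjusted p was 0.513 and 471 had an unadjusted p under 0.05 (limma), beside 530.5 expected by chance. Intervals were wide for most of the genes that stood out. The combination pair minus the exendin-4 pair was -0.03 for Nr4a1, with a 95% interval of -0.43 to 0.38. It was -0.75 for Ppargc1a (-1.64 to 0.15), 1.07 for Tac1 (-0.15 to 2.29) and -0.62 for Crem (-1.49 to 0.25). Pde4b had 0.01 (-0.35 to 0.37), and the interval was narrowest for Dip2b, Pde4b and Nr4a1 among the 12 genes above 0.

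The 2 h differences were then set beside those at 0.5, 6 and 24 h. Nr4a1 had an exendin-4 difference of 2.12 at 0.5 h, 0.95 at 2 h, 0.26 at 6 h and 0.23 at 24 h. For 2 h against 0.5 h, 212 genes had an unadjusted p under 0.05, fewer than the 530.5 expected by chance. Nr4a1 was the only gene whose difference at 2 h departed from that at 0.5 h (0.00943% of genes tested). It departed by -1.17 ± 0.12 (adjusted p 0.0323, limma). That call was lost without any 1 of the arrays of 0.5, 2 or 6 h (adjusted p 0.150 to 0.959). Ppargc1a had 0.01 at 0.5 h, 1.97 at 2 h, 0.18 at 6 h and 0.22 at 24 h, so its 2 h value was the largest. Since Ppargc1a was called on its 2 h value, part of that lead is built in. The test of 2 h against 0.5 h gave it 1.96, with a 95% interval of 1.25 to 2.67 and an adjusted p of 0.769. Against 6 h and 24 h no gene passed, with 162 and 273 at an unadjusted p under 0.05, both fewer than the 530.5 of chance.

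Time courses fell into 2 shapes by their values, which were not tested apart. Genes picked by their p at 2 h tend to have larger values then than at other times, so a 2 h peak is partly built in. Fosl2, with 2.03, 1.64, 0.97 and 0.48 at 0.5, 2, 6 and 24 h, and Nr4a3, with 1.64, 1.46, 0.13 and 0.27, were already high at 0.5 h. At 0.5 h Nr4a3 differed by 0.38 in the exendin-4 pair and 2.91 in the combination pair, so that value rests on the combination. Fos had 0.63, 0.10, 0.07 and 0.07, and Nr4a2 had 0.72, -0.14, -0.06 and 0.05, so both were near 0 by 2 h. Tac1, with 0.11, 2.20, 1.47 and 1.30, and Lrrc10b, with 0.16, 1.12, 0.87 and 0.46, had fitted differences near 0 at 0.5 h. For Tac1 that value averages opposed pairs, -0.45 with exendin-4 alone and 0.68 with the combination. The pairs of Crem at 0.5 h were also opposed, at -0.08 and 0.68. Crem had 0.30, 1.35, 0.71 and 0.16, Pde10a 0.08, 0.93, 0.22 and 0.17, and Btbd11 -0.03, 0.91, 0.78 and 0.48. Gsk3b had -0.61, -1.04, -0.09 and -0.25, and at 6 h its 2 pairs were opposed. Only Nr4a1 passed the exendin-4 test at 0.5 h and no gene passed at 6 or 24 h. There 200, 739 and 627 genes had an unadjusted p under 0.05, beside 530.5 expected by chance at each time.

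**Figure D5:**
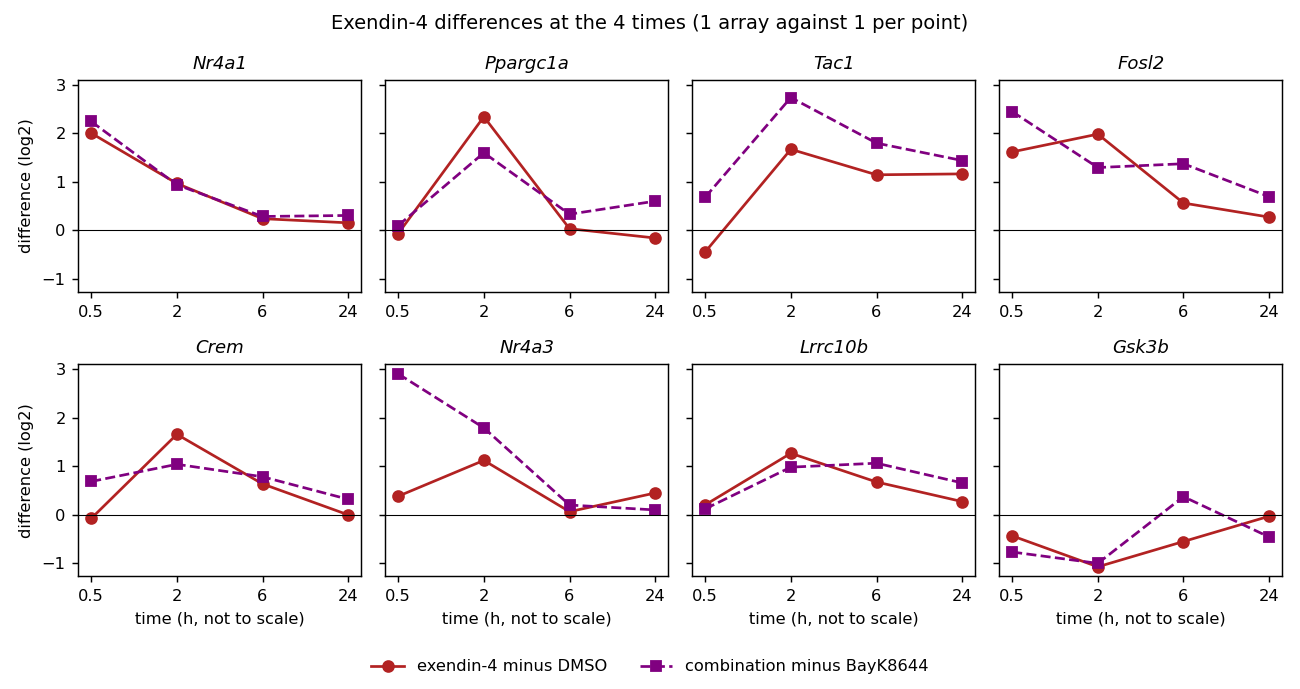
Exendin-4 minus DMSO (red, solid) and combination minus BayK8644 (purple, dashed) on the log2 scale at 0.5, 2, 6 and 24 h for 8 genes, 1 array against 1 per point, with times evenly spaced. Nr4a1 is highest at 0.5 h, while Ppargc1a and Tac1 are highest at 2 h. Ppargc1a and Tac1 were named for their 2 h values, so a peak there is partly built in.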

How the data were processed

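R7T1 cells were profiled on 1-colour Affymetrix arrays, 1 per treatment and time, from 5 ug of total RNA per the labels' protocols. The authors deposited intensity on a linear scale, from GCRMA per the submitters' processing notes. Its version is not given in the sources used here. GCRMA corrects background by probe sequence and quantile-normalizes arrays, which can hide global shifts. Log2 was taken with no pseudocount. Probe sets with 1 symbol in the platform annotation (34958 of 45101) were kept where log2 reached 4 on at least 2 arrays, and the brightest per gene was used. The fit was limma 3.58.1 in R 4.3.3 (lmFit, eBayes with trend) on all 16 arrays: time, plus a BayK8644 and an exendin-4 effect at each time, with Benjamini-Hochberg adjustment at 0.05. The interaction fit had 3 residual degrees of freedom. The fitting steps were also run on simulated data, and no outcome of that is given here. The labels do not state separate cultures, so the spread behind the p-values may be technical. That spread also holds any real departure of the 2 agents from adding to each other. The number of arrays limits the precision, and median intensity at 2 h lay between 10.5 and 11.2.

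Members, lists and the naming rule were chosen with earlier results of these data known. The rule takes called genes, filled to 12 per direction by smallest p with both pairs of that sign, plus fixed genes. Listed genes with no single-symbol probe set were not analysed here. Alternatives covered added intensity, filters, probe sets, normalization, variance settings and arrays left out.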

Additional observations from a re-analysis of the deposited data

Results flagged for a closer look

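The exendin-4 difference of Nr4a1 departed between times, by -1.17 on the log2 scale at 2 h minus 0.5 h. At 0.5 h Nr4a1 lay at 11.31 with exendin-4, against 9.31 with DMSO, and at 14.00 with the combination, against 11.75 with BayK8644. Its adjusted p was 0.0323, and over the alternatives it ranged from 0.0141 to 0.959.

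A probe set outside the gene tests, 1420310_at, which has no gene name in the annotation used here, had a fitted difference of 4.13 ± 0.50 (SE) at 2 h. Its intensity was 161 with exendin-4, against 13.2 with DMSO, and 228 with the combination, against 9.04 with BayK8644. It stood at 38.0 with exendin-4 at 6 h, and on the remaining arrays between 9.15 and 15.0, at the floor of the method. It reached the filter only on these 3 arrays with exendin-4, so no exact fold is given: with values under log2 4 set to 4, its difference at 2 h was at least 3.58 on the log2 scale. In the fit over all 21724 probe sets above the filter its adjusted p was 0.272 (limma), and no probe set passed there.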

How the results depend on the processing

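The count of 2 genes higher at 2 h was 0 with every probe set tested on its own, 0 without the intensity trend in eBayes, 0 with the 4 arrays of 2 h alone and 1 without the 4 arrays of 0.5 h. Leaving out 1 array at a time it lay between 0 and 2. The cause was not tested, but arrays left out also take away residual degrees of freedom. Lrrc10b joined under renewed quantile normalization, median centring and robust eBayes (3 genes each), and took the place of Ppargc1a with a filter at log2 6. No gene was lower under any of these settings. The count of 1 gene for 2 h against 0.5 h was 0 with no filter on dim probe sets, with every probe set and without the intensity trend, and 0 to 1 leaving out 1 array. The interaction with BayK8644, 0 genes, gave 82 with no filter, 1 without the 4 arrays of 24 h and 0 to 1 leaving out 1 array. Irs2, at 0.00, lay between -0.0237 and 0.0233 leaving out 1 array and was the only named gene to change sign. Nr4a1 passed in 16 of 27 alternatives and Ppargc1a in 10 of 26. The labels carry no replicate numbers, so no block by replicate number could be fitted. The pairs within a time are already in the model.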

Other observations

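Among genes past 0.5 in both pairs, some lie outside the rule for named genes and were chosen after their values were seen. Hs3st1, a heparan sulfate sulfotransferase gene, lay at 5.73 and 5.48 with exendin-4 (alone, combination), against 4.21 with DMSO and 4.02 with BayK8644. Its arrays without exendin-4 lay near the floor. Fgfr2, a fibroblast growth factor receptor gene, lay at 8.58 and 8.24, against 7.19 and 7.02. Both had an adjusted p of 0.225 (limma), and in both the arrays with exendin-4 lay above the arrays without it. Since they were chosen for large differences in both pairs, that separation is partly built in. Il1b, the interleukin-1 beta gene, lay at 4.95 and 5.32, against 4.29 and 4.74, near the floor. Malat1, a nuclear long noncoding RNA, had the lowest fitted difference, -2.25 ± 0.76, from unequal pairs of -0.96 and -3.53 (adjusted p = 0.777, limma). It lay at 10.49 with exendin-4, against 11.46 with DMSO, and at 10.19 with the combination, against 13.72 with BayK8644.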
